A study of Mus musculus with 12 samples.

Results

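Mouse embryonic stem (ES) cells of wild-type (WT) genotype were compared with the same cells after 8 and 12 days of differentiation, a set of 4 polyadenylated RNA libraries out of the 12 in the series. Both ES libraries carry the label WT and a replicate number, and the differentiated libraries are labelled WT differentiated at day 8 and WT differentiated at day 12, with 1 library a day. The remaining 8 libraries come from mutants of the histone H4 lysine 20 methyltransferases and enter no comparison given here other than alternative fits in which all 12 libraries supply the spread. Per the labels' protocol, ES cells grew on gelatin with 1.5 µM CHIR9901, an inhibitor of the kinase GSK3, and were passaged several times so that feeder cells were lost. The differentiation method is not described in the labels. Embryoid bodies, floating aggregates in which ES cells differentiate together, are the form that the names of the deposited tables imply. The 2 days stand as the 2 differentiated samples, so a gene must differ from ES cells by more than day 8 and day 12 differ from each other to pass the test. Nothing says that the 2 ES libraries came from separate cultures, so p-values measure only the spread between these samples, which may be technical on the ES side.

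ES cells hold the state of the early epiblast through a network of transcription factors around Oct4 (Pou5f1), Nanog and Sox2. Once the culture conditions that hold this state are removed, ES cell aggregates form derivatives of the 3 germ layers without spatial order, together with extraembryonic endoderm and yolk-sac-like blood. Embryonic globins, cardiac and smooth muscle genes, collagens, endoderm factors, serum proteins of the visceral endoderm and Hox genes are the usual readouts of that process.

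Reads counted in genes numbered 23880829 and 24710502 in the ES libraries, 26265751 at day 8 and 26675600 at day 12. Levels are given as RPKM, reads scaled to transcript length and to the TMM-scaled number of reads in genes, a scale on which genes of different length can be compared. Where 4 values stand in a row they follow the order first ES library, second ES library, day 8, day 12. On log2(RPKM + 1) over the genes tested, the ES libraries correlated at 0.9957, the differentiated libraries at 0.9118, and ES with differentiated libraries at 0.6359 to 0.6643, a description across genes that are not independent replicates.

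Differentiation changed the level of 6726 of 12328 genes tested (54.6%) at an edgeR quasi-likelihood adjusted p under 0.05 (Benjamini-Hochberg). Without adjustment, 7670 genes (62.2%) were under that p. Of the called genes, 3372 (27.4%) were higher after differentiation and 3354 (27.2%) lower. A change of at least 2-fold was reached by 2719 of the higher genes (22.1% of genes tested) and by 2258 of the lower genes (18.3%). The share called is large, so the count for any gene group has to be read against it. The count depends on which libraries supply the spread. Without the first ES library 1288 genes passed (909 higher and 379 lower), and without the second 1174 (836 higher and 338 lower), the lone ES sample then being assumed to vary like the days. Without day 8, when the 2 ES libraries alone supply it, 9162 of 10973 genes tested passed, and without day 12, 8758 of 10982. Of the 235 called genes that the naming rule picked, 150 also passed with either ES library left out. A call described as lost without either ES library failed in both fits that leave out 1 of them.

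A gene that is silent in ES cells enters the test only when it reaches 1 deposited RPKM at both days, and it can then only be higher. Of the genes tested, 1311 were under that level in both ES libraries. In the same way, a gene under that level at both days enters only through the ES libraries and can only be lower. Counts over the tested members of a lineage list are therefore descriptions of these libraries, and the full list size is given beside them. Where no other share is given, they stand beside 27.4% higher and 27.2% lower over all genes tested. Counts of tested members at least 2-fold higher or lower at day 12 than at day 8 stand beside 8.03% and 6.15%. In bulk RNA, more cells of a type and more RNA per cell cannot be told apart.

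**Figure D1:**
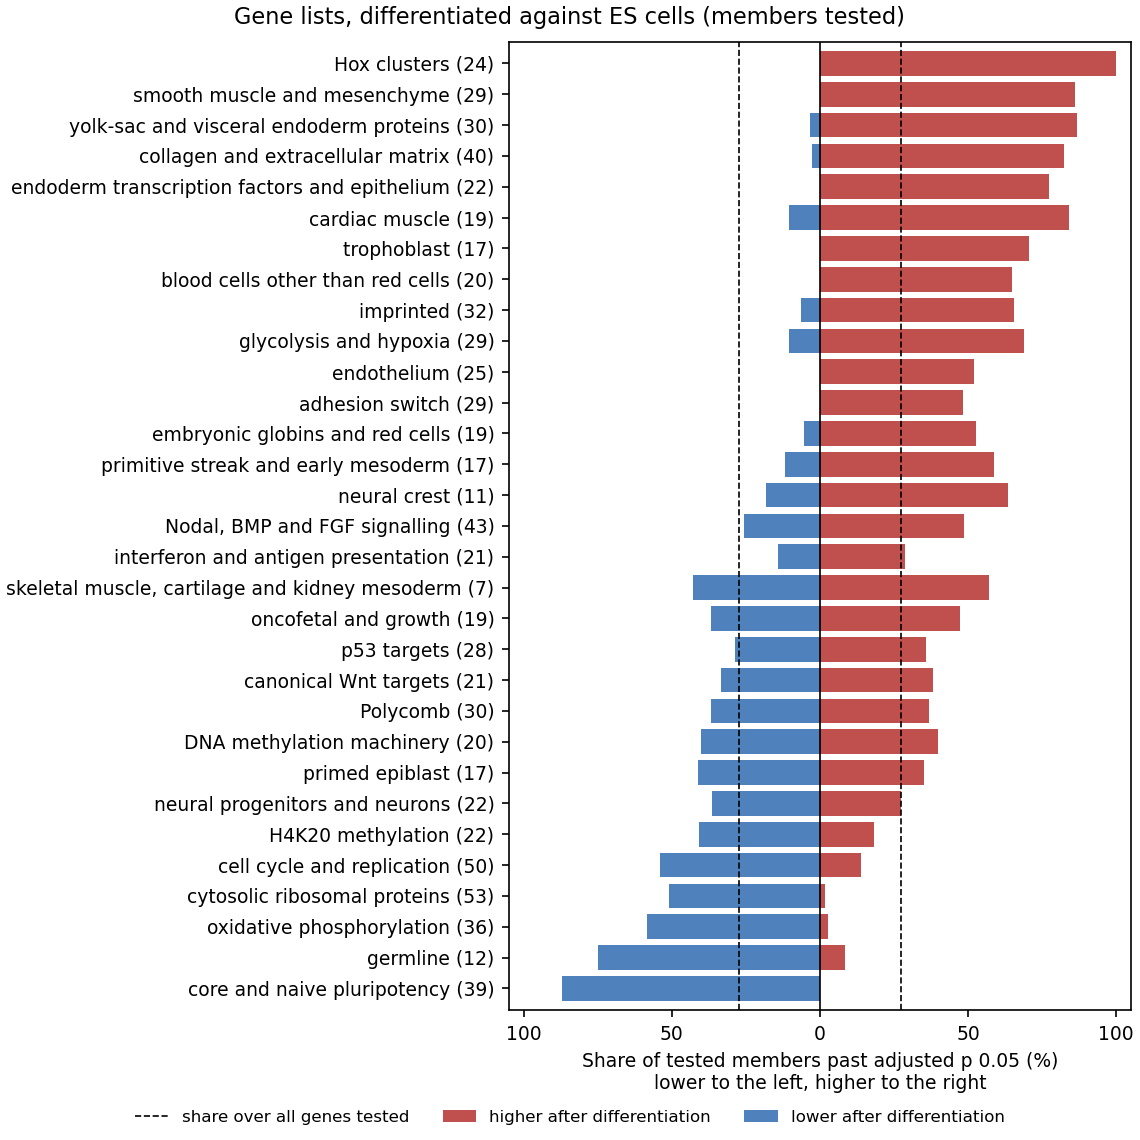
Share of the tested members of each gene list that passed an edgeR adjusted p of 0.05, in percent, with lower genes to the left and higher genes to the right of 0; the number of members tested stands in parentheses, lists with under 7 tested are left out, and dashed lines mark the shares over all genes tested (27.4% higher, 27.2% lower). The pluripotency list lies almost wholly to the left (34 of 39 lower), and the mesenchyme, matrix, yolk-sac and Hox lists almost wholly to the right.

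Genes of the pluripotency network fell. Of 39 genes of core and naive pluripotency, all of them tested, 34 fell (87.2%), none rose, and the median log2 fold change was -3.71 against -0.01 over all genes tested. Pou5f1, the POU-domain factor that defines the pluripotent state, was at 1295, 1298, 82.3 and 42.4 RPKM. Both differentiated libraries lay far below both ES libraries (log2 fold change -4.38, SE 0.41, edgeR adjusted p = 0.00451). Its partner Sox2, a high-mobility-group factor, was at 856, 854, 85.6 and 30.3 RPKM (log2 fold change -3.88, SE 0.59, edgeR adjusted p = 0.0106). Nanog, a homeodomain factor of the same network, was at 286, 306, 27.6 and 9.8 RPKM (log2 fold change -3.98, SE 0.58, edgeR adjusted p = 0.00975), and Zfp42, the Rex1 marker of undifferentiated cells, at 1425, 1350.3, 51.9 and 20.8 RPKM (log2 fold change -5.25, SE 0.56, edgeR adjusted p = 0.00547). In these 4 genes the level at day 12 was below that at day 8. Without the first or the second ES library 24 of the 34 falls passed the test in either case.

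Genes of the naive state followed. Esrrb, an orphan nuclear receptor, was at 334, 342, 17.2 and 4.35 RPKM and fell by 4.97 on the log2 scale (SE 0.80, edgeR adjusted p = 0.0118). Nr0b1 (Dax1), among the 12 largest falls of all genes, was at 212, 219, 5.37 and 1.09 RPKM. Tfcp2l1 went from 136 and 140.2 RPKM to 10.4 and 7.81 RPKM (log2 fold change -3.93, SE 0.21, edgeR adjusted p = 0.00298), a fall of similar size at both days. Dppa5a, an RNA-binding protein of ES cells, fell from 516 and 489 to 59.1 and 10.6 RPKM, although its call was lost without either ES library. The epiblast growth factor Fgf4 (91.7, 84.6, 10.5 and 3.48 RPKM) and the Nodal co-receptor Tdgf1 (384, 372, 24.3 and 9.89 RPKM) fell as well. The LIF receptor Lifr and its effector Stat3 did not pass: Lifr was at 11.2, 11.5, 5.77 and 10.6 RPKM and Stat3 at 40.0, 38.9, 31.6 and 53.7 RPKM.

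Klf4, a zinc-finger factor of the naive network that is also active in epithelia and smooth muscle, did not share the course of most list members. It was at 239, 237, 17.7 and 209 RPKM, so day 8 was far below the ES libraries and day 12 close to them, and the test over both days did not pass (edgeR adjusted p = 0.463). Klf5, a related factor, was at 462, 453, 40.1 and 129.5 RPKM and passed (log2 fold change -2.43, SE 0.62, edgeR adjusted p = 0.0342). Sall4, at 177, 182, 53 and 113 RPKM, showed a similar dip without a call. Dppa3, low in these ES cells at 3.27 and 1.91 RPKM, was at 1.26 and 0.389 RPKM after differentiation and did not pass. Of 30 tested list members with at least 5 RPKM at a day, 10 were at least 2-fold lower at day 12 than at day 8 and 4 at least 2-fold higher, where 614 (6.15%) and 801 (8.03%) of 9976 such tested genes were so overall. The Klf5 call was lost without either ES library.

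**Figure D2:**
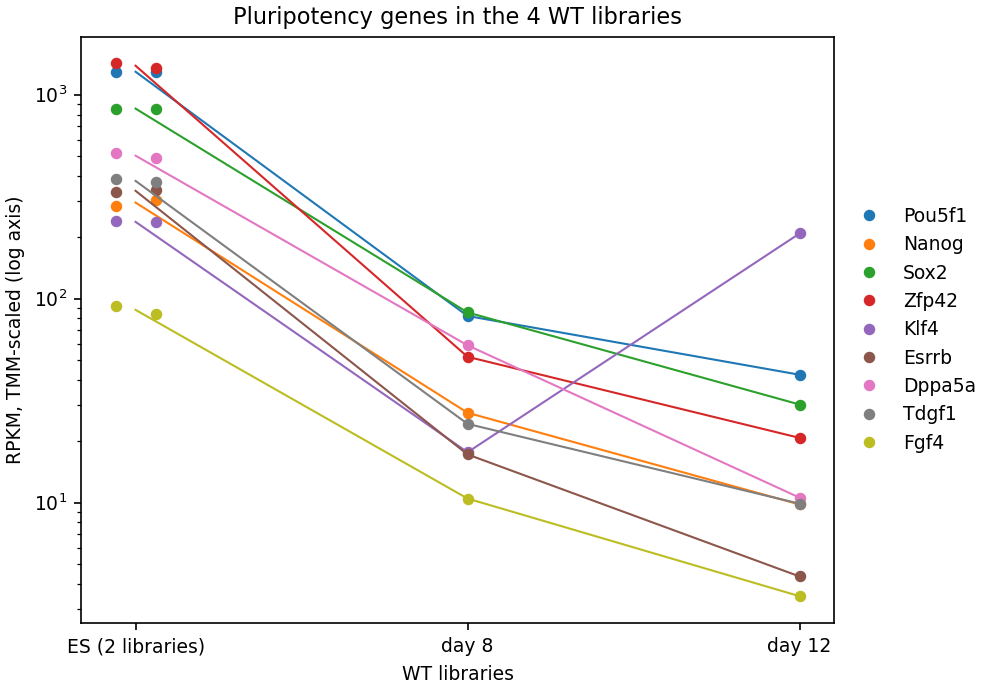
Level of 9 pluripotency genes in the 4 WT libraries, in TMM-scaled RPKM on a log axis; points are single libraries and lines run from the mean of the 2 ES libraries to day 8 and day 12. The other genes fall at both days, while Klf4 returns from 17.7 RPKM at day 8 to 209 RPKM at day 12.

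Sequence before the start sites was examined for ATGCAAA, a shortened form of the octamer motif bound by POU-domain factors such as Oct4. In the 250 bases before the farthest upstream RefSeq start (GRCm38.p6, either strand), it was found in 3 of the 27 pluripotency genes with an entry (11.1%), namely Nanog, Sox2 and Zfp42, and in 1101 of 27025 genes overall (4.07%). The list was not chosen by this motif, and a match is a description of letters, not of binding. The promoters of Nanog and Zfp42 are shown because both genes were far below the ES level at both days, with the match in capitals, which reads TTTGCAT on the strand printed. The Nanog window is chr6:122707239-122707488 on the + strand, with the match starting -75 from the start site. The Zfp42 window is chr8:43307010-43307259 on the - strand, with the match starting at -185.
Nanog: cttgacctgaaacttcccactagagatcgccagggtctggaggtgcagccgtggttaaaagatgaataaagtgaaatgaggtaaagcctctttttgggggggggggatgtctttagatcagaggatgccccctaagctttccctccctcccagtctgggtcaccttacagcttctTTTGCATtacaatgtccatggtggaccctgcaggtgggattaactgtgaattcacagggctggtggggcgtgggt
Zfp42: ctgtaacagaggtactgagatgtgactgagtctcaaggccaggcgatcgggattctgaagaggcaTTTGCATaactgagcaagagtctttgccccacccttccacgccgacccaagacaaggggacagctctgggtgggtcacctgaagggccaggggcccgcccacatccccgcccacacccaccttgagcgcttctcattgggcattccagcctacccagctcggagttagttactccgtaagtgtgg

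Genes of the primed epiblast did not move one way. Of 19 genes of the primed epiblast, 17 were tested, 6 rose (35.3%) and 7 fell (41.2%), beside 27.4% and 27.2% over all genes. Their median log2 fold change was -0.02. Fgf5, the classic marker of the primed state, stayed at 0.23, 0.337, 0.62 and 1.4 RPKM and was not tested. Otx2, an epiblast and anterior neural homeodomain factor, was at 3.31, 3.46, 7.68 and 5.33 RPKM, both days above both ES libraries, but missed the threshold (edgeR adjusted p = 0.0501). The Nodal antagonist Lefty1 was among the 12 largest falls, from 228 and 236 to 5.61 and 2.98 RPKM (log2 fold change -5.75, SE 0.39, edgeR adjusted p = 0.00351). Among the 6 genes that rose is Krt18, a keratin of simple epithelia in general and not of the epiblast alone, at 4.23, 4.21, 127 and 387 RPKM. Without an ES library 2 rises and 5 falls passed, whichever was left out.

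Primitive streak genes did not move together, and lateral mesoderm genes were high. Of 27 streak and early mesoderm genes, 17 were tested, 10 of them under 1 deposited RPKM in both ES libraries. Among these 17, 10 rose (58.8%) and 2 fell. T (Brachyury) was at 0.522, 0.294, 0.252 and 4.49 RPKM and Mesp1, an early cardiac mesoderm factor, at 0.305, 0.149, 0.274 and 4.43 RPKM, so neither was tested, and only day 12 stood above the ES level. The streak homeobox factor Mixl1 (2.51, 2.26, 0.21 and 5.92 RPKM) and the T-box factor Eomes (3.68, 4.46, 1.21 and 10.4 RPKM) were lowest at day 8 and highest at day 12, with groups that overlapped. Other streak genes rose: the ligand Wnt3 was at 0.119, 0.219, 4.98 and 2.64 RPKM (log2 fold change 4.48, SE 0.55, edgeR adjusted p = 0.00687), the homeobox factor Evx1 at 0.70, 0.934, 11.8 and 5.85 RPKM and the T-box factor Tbx6 at 0.743, 0.584, 2.37 and 3.27 RPKM, and the calls of Evx1 and Tbx6 were lost without either ES library. Hand1, a basic helix-loop-helix factor of lateral and extraembryonic mesoderm, was at 0.455, 0.317, 424 and 196 RPKM (log2 fold change 9.64, SE 0.63, edgeR adjusted p = 0.00351). Pdgfra, the platelet-derived growth factor receptor of mesoderm, was at 0.307, 0.348, 34 and 51.6 RPKM (log2 fold change 7.03, SE 0.32, edgeR adjusted p = 0.00298). Foxc1 and Foxc2, forkhead factors of mesenchyme, reached 9.04 and 3.9 RPKM at day 8 and 10.3 and 4.18 RPKM at day 12. The 2 falls were Tcf15 (345, 356, 18 and 8.2 RPKM) and the Wnt-responsive caudal gene Cdx1 (38.2, 39.1, 3.02 and 6.98 RPKM), both well expressed in these ES cells. Without the first ES library 7 rises and 2 falls passed, and without the second 6 rises and 1 fall.

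Cardiac transcription factors rose, and genes of the working sarcomere did not share one course. Of 34 cardiac genes, 19 were tested, 16 rose (84.2%) and 2 fell (Tnni3 and Atp2a2), and 14 of the 19 were under 1 deposited RPKM in both ES libraries. Gata6, a zinc-finger factor shared by heart and endoderm, was at 1.02, 1.03, 198 and 231 RPKM (log2 fold change 7.71, SE 0.18, edgeR adjusted p = 0.00268). Gata4 was at 2.42, 2.67, 95.9 and 412 RPKM and Hand2 at 0.147, 0, 309 and 109 RPKM, so Gata4 was higher at day 12 and Hand2 at day 8. Tbx5, the T-box factor of the first heart field, had no reads in the ES libraries and 5.59 and 3.83 RPKM at the 2 days, at least 152-fold above a floor of 3 reads per ES library. Nkx2-5 was at 0.917, 1.39, 10.3 and 8.14 RPKM (log2 fold change 2.99, SE 0.34, edgeR adjusted p = 0.00598), a call lost without the first ES library. These factors were above the ES level at both days.

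Among contractile genes, Actc1 (cardiac alpha-actin) was at 0.0296, 0.0288, 14.7 and 4.09 RPKM and Tnni1, the slow troponin I of the early heart, at 0.0379, 0.0738, 35.4 and 3.04 RPKM, both highest at day 8, and the Tnni1 call was lost without either ES library. Myl3, the ventricular and slow muscle light chain, was at 0, 0.179, 2.05 and 86.4 RPKM, with nearly all of its level at day 12, and its call (edgeR adjusted p = 0.0491) was lost without either ES library. Myh7, the beta heavy chain, rose to 3.54 and 2.35 RPKM, a call lost without the first ES library. The light chain Myl4 (1.68, 1.14, 3.97 and 8.2 RPKM), the slow and cardiac troponin C gene Tnnc1 (0.468, 0.684, 2.78 and 3.79 RPKM) and the widely expressed tropomyosin Tpm1 (21.7, 19.6, 124 and 70.6 RPKM) rose as well, 3 calls lost without either ES library. The cardiac heavy chain Myh6 was at 1.37, 1.56, 2.34 and 1.49 RPKM, the natriuretic peptide Nppa at 0.545, 0.532, 0.267 and 0.768 RPKM, cardiac troponin T (Tnnt2) at 0, 0, 4.1 and 0.411 RPKM and titin (Ttn) below 0.1 RPKM in each library, and none of these 4 entered the test. Cardiac troponin I (Tnni3) fell, at 4.29, 4.52, 1.79 and 1.69 RPKM (edgeR adjusted p = 0.0195), a call lost without either ES library. Actn2 was at 1.47, 1.68, 0.754 and 0.347 RPKM and was not tested. Without the first or the second ES library 7 and 8 of the 16 rises passed.

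The CArG box, the A/T-rich motif bound by serum response factor in muscle genes, was found in the 250 bases before the start of 3 of 29 cardiac genes with an entry (10.3%; Myl3, Myl7 and Actc1) and of 1 of 23 smooth muscle and mesenchyme genes (4.35%; Cnn2), against 380 of 27025 genes overall (1.41%). Myl7, with the motif, was at 3.21, 2.11, 2.31 and 0.674 RPKM and did not pass. The Actc1 window is shown because its gene rose with and without each ES library. It is chr2:114052876-114053125 on the - strand, with the box in capitals starting -47 from the start site.
Actc1: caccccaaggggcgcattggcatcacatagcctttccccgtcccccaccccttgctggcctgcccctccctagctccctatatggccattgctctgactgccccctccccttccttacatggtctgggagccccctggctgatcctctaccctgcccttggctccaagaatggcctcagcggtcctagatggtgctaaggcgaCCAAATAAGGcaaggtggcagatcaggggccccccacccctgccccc

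Mesenchymal genes rose. Of 35 smooth muscle and mesenchyme genes, 29 were tested, 12 of them under 1 deposited RPKM in both ES libraries. Among these 29, 25 rose (86.2%) and none fell, with a median log2 fold change of 3.72. Summed levels of the list were 334, 338, 3250 and 4010 RPKM. Vim, the mesenchymal intermediate filament vimentin, was at 51.2, 57.9, 839 and 654 RPKM (log2 fold change 3.77, SE 0.21, edgeR adjusted p = 0.00306). Acta2, smooth muscle alpha-actin, was at 0.0693, 0.0676, 219 and 82.5 RPKM (log2 fold change 11.05, SE 0.85, edgeR adjusted p = 0.00388), and the actin-binding protein Tagln at 3.16, 2.0, 48.1 and 84.2 RPKM. Twist1 and Twist2, helix-loop-helix factors of mesenchyme, stood at 162 and 170.3 RPKM at day 8 and 108 and 75.8 RPKM at day 12, from at most 3.43 RPKM in ES cells. The late markers of contractile smooth muscle stayed low: Myh11 was at 0.0744, 0.133, 0.0556 and 0.156 RPKM, Cnn1 at 0.724, 0.868, 1.69 and 1.44 RPKM and the coactivator Myocd at 0, 0.00783, 0.67 and 0.264 RPKM, none of them tested. With either ES library left out 19 of the 25 rises passed.

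Several stromal genes were not detected in ES cells. Lum (lumican) had no reads in ES cells and 20.1 and 32.7 RPKM at the 2 days, at least 450-fold higher than the floor of 3 reads per library. Dcn (decorin) and the epicardial factor Tcf21 likewise had no reads in ES cells, with 3.64 and 9.83 RPKM and 21.8 and 15.7 RPKM at days 8 and 12. Postn (periostin), a matricellular protein of cushions and fibroblasts, was at 0, 0.0125, 122 and 49.6 RPKM (log2 fold change 13.42, SE 1.001, edgeR adjusted p = 0.00377). Prrx1, a homeodomain factor of limb and lateral mesenchyme, reached 6.39 and 2.84 RPKM. Thy1, a fibroblast surface marker, went against the list at 8.41, 8.13, 1.47 and 4.01 RPKM and did not pass. Lum, Dcn and Postn, which fibroblasts also express, were thus at or near 0 in both ES libraries.

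Collagens and their processing enzymes rose together. Of 42 matrix genes, 40 were tested, 16 of them under 1 deposited RPKM in both ES libraries. Among these 40, 33 rose (82.5%) and 1 fell, with a median log2 fold change of 4.38. Collagens of types I and III were highest at day 8: Col1a1 was at 0.359, 0.299, 277 and 203 RPKM (log2 fold change 9.51, SE 0.31, edgeR adjusted p = 0.00268) and Col3a1 at 0.00739, 0.0432, 218 and 144 RPKM (log2 fold change 12.74, SE 0.67, edgeR adjusted p = 0.00298). By contrast Col6a1 (0, 0.0403, 17.7 and 51.1 RPKM) and Col6a2 (0.584, 0.548, 16.5 and 54.7 RPKM) were highest at day 12. Serpinh1, the collagen chaperone, was at 38.2, 34.1, 668 and 1217 RPKM, and the prolyl hydroxylases P4ha1 and P4ha2 reached 166 and 184 RPKM at day 12. The lysyl oxidase Lox, which cross-links collagen, was at 0, 0.0445, 4.79 and 18.7 RPKM, and Loxl2 at 2.69, 3.61, 140.3 and 181 RPKM. Fibronectin (Fn1) was already abundant in ES cells, at 183, 182, 451 and 204 RPKM, and did not pass (edgeR adjusted p = 0.158). Timp1 was the fall, from 14.8 and 13.7 to 5.43 and 4.11 RPKM. Without the first or second ES library 19 and 20 of the 33 rises passed.

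Basement membrane genes did not share one course, and several of them gained most between day 8 and day 12. Col4a1 and Col4a2, the 2 chains of the ubiquitous collagen IV trimer, were at 2.77, 3.21, 115 and 1012 RPKM and at 2.13, 1.92, 109 and 851 RPKM. Their levels rose by 7.56 and 7.89 on the log2 scale, with SEs of 1.37 and 1.32, and both calls were lost without either ES library. The laminin-111 chains Lama1 (7.61, 6.77, 12.6 and 166 RPKM), Lamb1 (18.3, 17.2, 71.6 and 394 RPKM) and Lamc1 (121, 122, 96.9 and 667 RPKM) were each highest at day 12, and of these Lamb1 alone passed (edgeR adjusted p = 0.0321), a call lost without either ES library. Lamc1 was below the ES libraries at day 8. Sparc, a collagen-binding glycoprotein of the basement membrane, was at 123, 117, 666 and 1898 RPKM, likewise with a call lost without either ES library. By contrast Col4a6, a chain of smooth muscle and epithelial basement membranes, was at 0, 0, 9.92 and 3.62 RPKM and higher at day 8. Lama4, at 0.136, 0.252, 13.1 and 4.1 RPKM, and Col18a1, at 72.3, 71, 169.9 and 50.5 RPKM, were also higher at day 8, Col18a1 without a call. Hspg2 (perlecan), at 24.8, 23.5, 34 and 34.7 RPKM, and Lamb2, at 10.1, 11, 37.2 and 52.9 RPKM, had most of their gain by day 8. The calls of Hspg2 and Lamb2 were lost without either ES library and that of Lama4 without the first. No test of day 12 against day 8 was run, with 1 library each.

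Primitive red cell genes stood far above the ES level at day 8 and had largely receded by day 12. The list's summed level was 127 and 135 RPKM in ES cells, 9400 RPKM at day 8 and 411 RPKM at day 12. Hba-x, the embryonic zeta globin, was at 0, 0, 3317 and 49.4 RPKM, and Hbb-bh1, an embryonic beta-like globin, at 0, 0, 2153 and 14.2 RPKM. Both had no reads in either ES library, and their group means were at least 8290-fold and at least 5430-fold above the floor of 3 reads per library. The 2 days differed widely, and neither gene passed the test of differentiated against ES cells (edgeR adjusted p = 0.0541 and 0.0739). Hbb-y, the epsilon-type globin, was at 0, 0, 649 and 23.5 RPKM, at least 1710-fold higher in the mean, and just passed (edgeR adjusted p = 0.0495), a call lost without either ES library.

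The adult alpha globins Hba-a1 and Hba-a2 have near-identical sequences and nearly identical read counts, so their values are uncertain, and Hba-a1 was at 1.1, 0.645, 1324 and 76.2 RPKM, a call lost without either ES library. Hbb-b1 and Hbb-b2, the adult beta globins, had equal read counts at both days, and Hbb-b1 was at 0.131, 0, 15.6 and 4.89 RPKM, far below the embryonic globins at day 8. The erythroid regulators showed the same pulse: Gata1, the zinc-finger master factor, was at 0.569, 1.11, 51.2 and 2.18 RPKM, Klf1 at 1.93, 1.44, 42.3 and 1.45 RPKM and Tal1 at 1.14, 1.1, 36.9 and 3.14 RPKM, and none of the 3 passed. Alas2, the first enzyme of erythroid heme synthesis, was at 0.374, 0.466, 38.1 and 0.985 RPKM and the anion exchanger Slc4a1 (band 3) at 0.244, 0.291, 28.8 and 0.393 RPKM, and neither entered the test because day 12 was under 1 deposited RPKM. Of the list's 27 genes 26 were in the tables and 19 were tested, 11 of them under 1 deposited RPKM in both ES libraries. Among these 19, 10 rose (52.6%) and 1 fell, the transferrin receptor Tfrc (80.7, 86.2, 59.4 and 59.5 RPKM). With DESeq2 Wald tests 17 members passed as higher, Hba-x and Hbb-bh1 among them (DESeq2 adjusted p = 5.22e-05 and 0.000333), and without the first or second ES library edgeR called 2 and 0. Of 19 tested members with at least 5 RPKM at a day, 15 were at least 2-fold lower at day 12 and none at least 2-fold higher. With members that were not tested these counts were 19 of 23 and none, beside 706 (6.96%) and 877 (8.65%) of 10144 such genes in the tables as a whole.

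The erythroid promoter motifs searched on either strand in the same window were the GATA site AGATAA and the CACCC box CCACCC, whose letters cannot overlap. AGATAA was present in 4 of the 16 list genes with an entry (25.0%) against 2764 of 27025 genes (10.2%), and CCACCC in 9 of 16 (56.2%) against 7460 of 27025 (27.6%). These are counts of letters in a short list and carry no test. The windows of Hba-x and Hbb-y, 2 of the embryonic globins, are shown with the CACCC box in capitals. Hbb-bh1, another embryonic globin, was not among the 9 genes with a CCACCC match. For Hba-x the window is chr11:32276350-32276599 on the + strand with the match at -96, and for Hbb-y chr7:103853208-103853457 on the - strand with the match at -112, both counted from the start site.
Hba-x: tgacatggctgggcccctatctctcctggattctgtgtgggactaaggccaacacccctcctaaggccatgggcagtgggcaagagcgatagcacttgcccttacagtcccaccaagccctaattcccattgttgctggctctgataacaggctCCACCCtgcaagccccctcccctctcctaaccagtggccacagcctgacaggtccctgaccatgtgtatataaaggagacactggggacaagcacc
Hbb-y: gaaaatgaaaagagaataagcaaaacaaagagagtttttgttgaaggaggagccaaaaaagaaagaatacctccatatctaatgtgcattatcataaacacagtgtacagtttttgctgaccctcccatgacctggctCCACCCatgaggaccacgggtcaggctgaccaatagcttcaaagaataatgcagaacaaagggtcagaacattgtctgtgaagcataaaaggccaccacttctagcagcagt

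Most endothelial genes were highest at day 8, like the red cell genes. Of 32 endothelial genes, 25 were tested, 12 of them under 1 deposited RPKM in both ES libraries. Among these 25, 13 rose (52.0%) and none fell. The summed level of the list was 83.0 and 84.6 RPKM in ES cells, 1100 RPKM at day 8 and 704 RPKM at day 12. Kdr, the VEGF receptor of endothelial and blood precursors, was at 0.0377, 0.0147, 50.3 and 7.62 RPKM (log2 fold change 10.07, SE 1.52, edgeR adjusted p = 0.0104). Cdh5 (VE-cadherin) was at 0.155, 0.121, 70.9 and 10.5 RPKM, the receptor kinase Tie1 at 0.117, 0.031, 43.3 and 2.66 RPKM and the apelin receptor Aplnr at 0, 0.0225, 49.97 and 3.09 RPKM. Cldn5, the endothelial tight junction protein, and Plvap, the protein of fenestral diaphragms, reached 124 and 125 RPKM at day 8 and were back at 3.57 and 4.97 RPKM at day 12, and neither passed. Pecam1, also an ES cell surface protein, was at 25.4, 24.8, 49.4 and 8.59 RPKM, above the ES libraries at day 8 and below them at day 12. Of 24 tested members with at least 5 RPKM at a day, 20 were at least 2-fold lower at day 12 and 2 at least 2-fold higher, and of all 29 such members, tested or not, 25 and 2.

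The 2 members that were at least 2-fold higher at day 12 are expressed in other tissues too. Sox17, also an endoderm factor, was at 0.315, 0.717, 66.9 and 458 RPKM and the VEGF receptor Flt1, also a trophoblast and monocyte gene, at 0.111, 0.204, 10.5 and 45.2 RPKM. Sox17 made up most of the summed level at day 12. Sox7, at 22.4 and 41.6 RPKM at days 8 and 12, and Apln, at 8.73 and 9.87 RPKM, were also higher at day 12, by under 2-fold. Without the first or the second ES library 7 of the 13 rises passed in either case, and the calls of Cdh5, Tie1 and Aplnr were lost in both cases.

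Genes of blood progenitors and platelets rose. Of 31 genes of blood cells other than red cells, 20 were tested, 14 of them under 1 deposited RPKM in both ES libraries. Among these 20, 13 rose (65.0%) and none fell. Runx1, the factor of definitive blood, was at 0.30, 0.321, 13 and 8.55 RPKM (log2 fold change 5.11, SE 0.31, edgeR adjusted p = 0.00334). Itga2b (CD41), a marker of the first blood progenitors and megakaryocytes, was at 0.275, 0.163, 54.1 and 9.96 RPKM, and the platelet chemokine Pf4 at 0, 0, 68.9 and 9.06 RPKM, without reads in ES cells. Ptprc (CD45), the pan-leukocyte phosphatase, stayed at 0, 0, 0.195 and 0.463 RPKM and was not tested. Macrophage and myeloid genes had no common course between the days. C1qb was at 0.581, 0.113, 1.98 and 35.6 RPKM, C1qc at 1.09, 0.266, 2.84 and 33.5 RPKM and Csf1r at 0.276, 0.0828, 1.58 and 6.57 RPKM, all higher at day 12, with no call for C1qb or C1qc and no test for Csf1r. The myeloid ETS factor Sfpi1, at 1.3, 0.301, 22.3 and 11.4 RPKM, and the mannose receptor Mrc1, at 0.085, 0.0377, 2.2 and 0.912 RPKM and not tested, were higher at day 8, and the Sfpi1 call was lost without the second ES library. The signalling adaptors Tyrobp (0.145, 0.0708, 6.78 and 7.1 RPKM) and Fcer1g (0.875, 0.244, 14 and 14.2 RPKM) rose to nearly the same level at both days. Of 22 members of the list with at least 5 RPKM at a day, tested or not, 8 were at least 2-fold higher at day 12 and 8 at least 2-fold lower. Without the first and the second ES library 8 and 7 of the 13 rises passed, those of Itga2b and Pf4 in neither case.

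**Figure D3:**
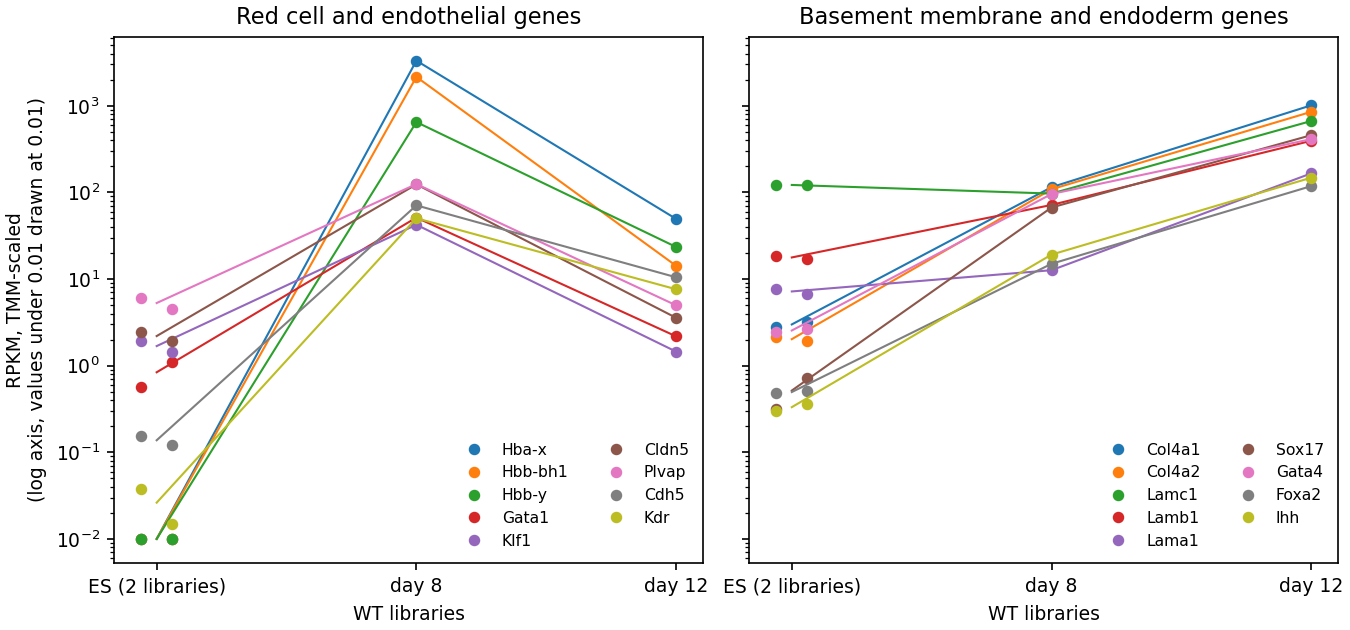
Levels of 9 red cell and endothelial genes (left) and 9 basement membrane and endoderm genes (right), picked as examples of each course, in the 4 WT libraries, in TMM-scaled RPKM on a log axis, with values under 0.01 drawn at 0.01; lines join the ES mean, day 8 and day 12. The genes on the left peak at day 8, as Hba-x does with 3317 RPKM, and those on the right are highest at day 12, as Col4a1 is with 1012 RPKM.

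Endoderm factors rose, most of them further at day 12. Of 26 genes of endoderm factors and epithelium, 22 were tested, 11 of them under 1 deposited RPKM in both ES libraries. Among these 22, 17 rose (77.3%) and none fell. Summed levels of the list were 132 and 125 RPKM in ES cells, 1140 RPKM at day 8 and 3010 RPKM at day 12. Foxa2, the pioneer factor of definitive and visceral endoderm, was at 0.483, 0.509, 15 and 118 RPKM (log2 fold change 7.06, SE 1.32, edgeR adjusted p = 0.0162), a call lost without either ES library. Hnf4a, a nuclear receptor of visceral endoderm and liver, was at 0.509, 0.58, 15.7 and 30.6 RPKM (log2 fold change 5.40, SE 0.45, edgeR adjusted p = 0.00414). Ihh, the hedgehog ligand made by visceral endoderm, was at 0.303, 0.361, 19.14 and 148 RPKM, also a call lost in that way, and the epithelial keratin Krt8 at 7.83, 7.82, 131 and 267 RPKM. Cer1, a secreted antagonist of anterior endoderm, had no reads in ES cells or at day 8 and 0.0913 RPKM at day 12, and the gut factors Pdx1 (0.415, 0.312, 0.631 and 1.27 RPKM) and Nkx2-1 (0.0872, 0, 0.0261 and 0.0562 RPKM) were not tested either. Of 18 tested members with at least 5 RPKM at a day, 11 were at least 2-fold higher at day 12 and 1, Cdx2, at least 2-fold lower. The liver and gut factor Onecut1, at 0.271, 0.33, 0.466 and 5.76 RPKM, was not tested and makes 12 of 19. Leaving out the first or the second ES library left 10 and 11 of the 17 rises.

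Secreted products of the yolk sac and visceral endoderm accompanied them. Of 39 such genes 38 were in the tables and 30 were tested, 20 of them under 1 deposited RPKM in both ES libraries. Among these 30, 26 rose (86.7%) and 1, the sorting nexin Snx5, fell, with a median log2 fold change of 5.44. Ttr (transthyretin) was at 0.236, 0.361, 56.2 and 51.8 RPKM (log2 fold change 7.48, SE 0.29, edgeR adjusted p = 0.00298), and Cubn, the cubilin receptor for protein uptake, at 0.102, 0.0991, 21.7 and 15.2 RPKM (log2 fold change 7.52, SE 0.29, edgeR adjusted p = 0.00298). The apolipoprotein Apoa1 was at 0.96, 0.163, 81.8 and 148 RPKM and Apob at 0.0768, 0.13, 39.9 and 24.2 RPKM. Afp (alpha-fetoprotein) and Apoa4 had no reads in ES cells and were at 7.11 and 39.3 RPKM and 14 and 68.2 RPKM at the 2 days, at least 398-fold and at least 562-fold higher. Rbp4, the retinol carrier, was at 0.628, 0.935, 83.6 and 161 RPKM and Amn, the partner of cubilin, at 0.732, 0.666, 16.8 and 41.8 RPKM.

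Some members better known from the liver stayed low. Albumin (Alb) was at 0.322, 0.608, 0 and 4.5 RPKM and fetuin (Ahsg) at 0.781, 0.326, 0.10 and 1.32 RPKM, and neither was tested. By contrast Fgb, the beta chain of fibrinogen, was at 0.0784, 0, 4.46 and 9.61 RPKM and rose (log2 fold change 7.39, SE 1.004, edgeR adjusted p = 0.00838). Transferrin (Trf) was at 7.35, 6.76, 1.47 and 10.9 RPKM and did not pass. Pth1r, the receptor for parathyroid hormone-related protein and a marker of parietal endoderm, was at 0.346, 0.711, 18.7 and 144 RPKM, and Cited1 at 1.98, 1.03, 77.4 and 298 RPKM, both highest at day 12, and the Pth1r call was lost without either ES library. Of 26 tested members with at least 5 RPKM at a day, 11 were at least 2-fold higher at day 12 and none at least 2-fold lower. Leaving out the first or the second ES library left 21 and 20 of the 26 rises.

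Trophoblast-associated genes rose in part. Of 27 trophoblast genes, 17 were tested, 8 of them under 1 deposited RPKM in both ES libraries. Among these 17, 12 rose (70.6%) and none fell, and the 12 include Hand1, Fgfr2 and Peg10, which mesoderm or epithelia also express. Gata3 was at 0.0384, 0.0499, 12.8 and 25.6 RPKM (log2 fold change 8.71, SE 0.60, edgeR adjusted p = 0.00351), Plac1 at 0.154, 0, 31.5 and 16.5 RPKM and Krt7 at 0.181, 0.809, 9.47 and 46.4 RPKM. The X-linked homeobox genes Rhox6 and Rhox9, members of a cluster of close relatives that may share reads, were at 1.76, 2.32, 15.9 and 205 RPKM and at 1.86, 1.23, 12.2 and 143 RPKM. The calls of Krt7, Rhox6 and Rhox9 were lost without either ES library. Some markers of trophoblast were at or near 0: Elf5 was at 0, 0.0362, 0 and 0.0718 RPKM, Tpbpa at 0, 0, 0 and 0.58 RPKM, and Prl3d1 and Prl2c2 had no reads in any of the 4 libraries. By contrast Cdx2, a factor of trophectoderm and of the posterior embryo, was at 1.17, 0.822, 82.4 and 20.5 RPKM and rose, a call lost without either ES library, and Ascl2 was at 3.03, 4.18, 3.16 and 17.6 RPKM, highest at day 12 like Eomes above and without a call. Of 17 tested members with at least 5 RPKM at a day, 11 were at least 2-fold higher at day 12 and 2 at least 2-fold lower, and of all 18 such members 12 and 2. With either ES library left out 6 of the 12 rises passed.

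**Figure D4:**
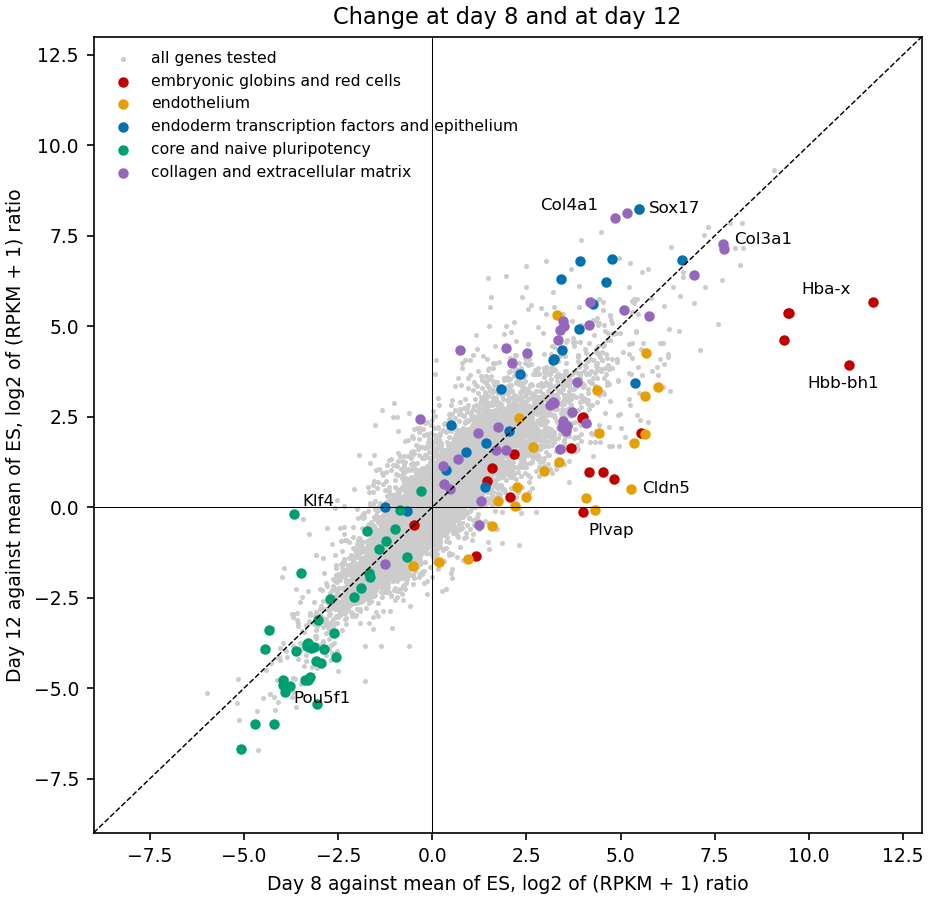
Each point is a gene tested, placed by its log2 ratio of (RPKM + 1) to the ES mean at day 8 (horizontal) and at day 12 (vertical); colours mark 5 lists and the dashed line marks equal change. Most red cell and endothelial genes lie below the line, most endoderm genes and Col4a1 above it, and most pluripotency genes at the lower left, with Klf4 apart from them.

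Neural genes showed no common gain. Of 42 neural genes, 22 were tested, 6 of them under 1 deposited RPKM in both ES libraries. Among these 22, 6 rose (27.3%) and 8 fell (36.4%), beside 27.4% and 27.2% over all genes. Tubb3, the neuronal beta-tubulin, was at 149, 155, 6.92 and 14.1 RPKM (log2 fold change -3.85, SE 0.41, edgeR adjusted p = 0.00545), and the growth-cone protein Stmn2 at 95.3, 97.8, 4.73 and 1.36 RPKM. Both were well expressed in the ES libraries. Sox1 and Pax6, factors of the neural plate, were at 5.39, 5.56, 0.53 and 0.355 RPKM and at 1.91, 2.03, 0.14 and 0.126 RPKM, both lower after differentiation. Neurod1 fell from 2.72 and 3.12 to 0.0592 and 0.0957 RPKM, and the POU factor Pou4f2 of retinal and sensory neurons, among the 12 largest falls, from 21 and 23.6 to 0.195 and 0.173 RPKM. Sox1, Pax6, Neurod1 and Pou4f2 were under 1 RPKM at both days, so they entered through the ES libraries and could only fall. The neurogenic factor Neurog2 was at 0.0371, 0, 0.0666 and 0.0897 RPKM and not tested, and the progenitor filament Nes was at 11.4, 11.2, 17.5 and 13.7 RPKM without a call. Irx3, Meis1, Meis2 and Ncam1, which rose, also act in mesoderm, and Irx3 was at 1.86, 1.54, 73.9 and 73.1 RPKM. Without the first ES library 4 rises and 3 falls passed, and without the second 4 and 2.

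Neural crest genes divided. Of 22 crest genes, 11 were tested, 6 of them under 1 deposited RPKM in both ES libraries. Among these 11, 7 rose (63.6%) and 2 fell (18.2%), beside 27.4% and 27.2% over all genes. The 2 falls were Sox10 and Foxd3. Snai2, a repressor shared with mesenchyme, was at 0.102, 0.199, 28.4 and 16.4 RPKM and the homeodomain factor Msx1 at 0.554, 0.747, 155 and 46.8 RPKM, whereas Sox10 was at 2.42, 1.97, 0.544 and 0.176 RPKM and fell (log2 fold change -2.59, SE 0.60, edgeR adjusted p = 0.0273). Sox9, also a cartilage and endoderm factor, was at 0.119, 0.203, 8.96 and 8.33 RPKM. Factors of skeletal muscle stayed near 0: Myod1 was at 0, 0.562, 0.0796 and 0 RPKM and Myf5 at 0.0592, 0, 0 and 0 RPKM, and 15 of the 22 genes of skeletal muscle, cartilage and kidney mesoderm were not tested. Osr1, a zinc-finger factor of intermediate and lateral mesoderm, had no reads in ES cells and 2.99 and 7.81 RPKM at the 2 days. In the crest list 6 rises and 1 fall passed with either ES library left out.

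Hox genes, which mark position along the body axis, were expressed at both days from all 4 clusters. Of 39 Hox genes, 24 were tested and all 24 were higher, but each of the 24 was under 1 deposited RPKM in both ES libraries, so the direction follows from the filter. In the Hoxb cluster the anterior members led, Hoxb2 at 0.379, 0.0246, 17.1 and 7.93 RPKM and Hoxb3 at 0.0243, 0.0591, 10.7 and 5.31 RPKM, with Hoxb4 at 0.192, 0.141, 6.36 and 4.94 RPKM, while Hoxb1 stayed at 0.0792, 0, 0.284 and 0.115 RPKM. In the Hoxa cluster the posterior members led, Hoxa13 at 0.0629, 0.0613, 31.4 and 11 RPKM and Hoxa10 at 0.337, 0.266, 15.1 and 11.1 RPKM. Hoxc10 was the highest gene of its cluster at both days (23.1 and 23.7 RPKM), and Hoxd9 the highest of its own at day 8 (25.1 RPKM). Of 19 tested Hox genes with at least 5 RPKM at a day, 10 were at least 2-fold lower at day 12 and 1 at least 2-fold higher, and of all 21 such Hox genes 12 and 1. Leaving out the first or the second ES library left 16 and 17 of the 24, and without a day none remained in the test.

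**Figure D5:**
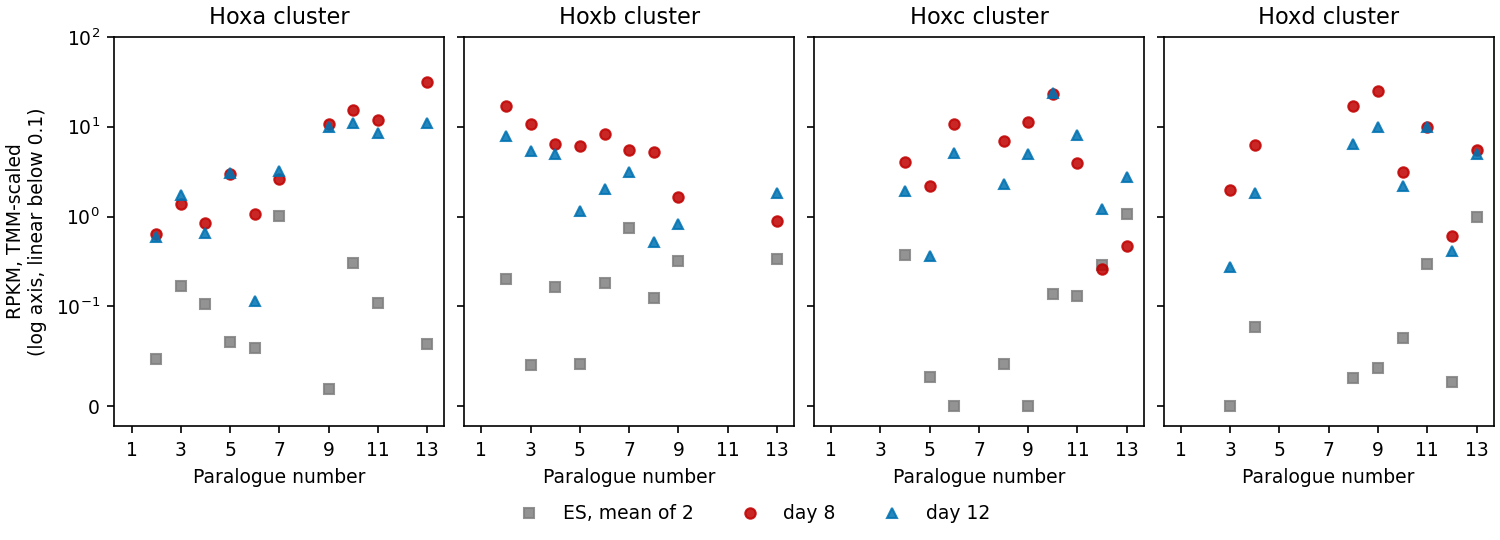
Level of the Hox genes of paralogue groups 2 to 13 against their paralogue number, by cluster, in TMM-scaled RPKM on a log axis that is linear below 0.1; squares are the ES mean of 2 libraries, circles day 8 and triangles day 12. Hoxa levels are highest at the posterior end (Hoxa13, 31.4 RPKM at day 8) and Hoxb levels at the anterior end (Hoxb2, 17.1 RPKM at day 8).

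Several FGF and Nodal genes fell and several BMP and TGF-beta genes rose. The FGF-ERK feedback targets fell: Spry4, an inhibitor of receptor signalling, was at 157, 159, 8.42 and 7.96 RPKM (log2 fold change -4.27, SE 0.13, edgeR adjusted p = 0.00268), and the ETS factor Etv4 at 93.6, 94.9, 4.77 and 4.14 RPKM (log2 fold change -4.40, SE 0.15, edgeR adjusted p = 0.00276). The ligands Fgf4 and Fgf17 fell too, Fgf17 from 83.2 and 90.2 to 2.89 and 1.27 RPKM, while the receptors Fgfr2 and Fgfr3 rose from about 1 RPKM to 14.8 and 27.9 RPKM at day 8. The Nodal ligand was at 39.2, 43.9, 6.19 and 4.16 RPKM (log2 fold change -3.01, SE 0.26, edgeR adjusted p = 0.00432), and Lefty2 and Gdf3 of the same pathway fell with it. Of 48 genes of the Nodal, BMP and FGF pathways, 43 were tested, 12 of them under 1 deposited RPKM in both ES libraries. Those 12 could only rise. Among the 43 tested, 21 rose (48.8%) and 11 fell (25.6%), beside 27.4% and 27.2% over all genes.

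Among the rises were components of BMP and TGF-beta signalling. Smad6, the inhibitory Smad induced by BMP, was at 4.1, 3.85, 100.4 and 97.8 RPKM (log2 fold change 4.64, SE 0.13, edgeR adjusted p = 0.00268), and the ligand Bmp2 at 0.0817, 0.112, 29.2 and 14.9 RPKM. Tgfb2 was at 0.444, 0.399, 36.5 and 9.89 RPKM, Tgfb3 at 0.158, 0.154, 7.02 and 8.2 RPKM and the receptor Tgfbr2 at 0.756, 0.829, 19.95 and 23.3 RPKM. The BMP target Id1 did not pass, at 157, 154, 130.0 and 167 RPKM, and Bmp4 itself was at 93.7, 102, 69.3 and 41.1 RPKM without a call, whereas Id3 was at 56, 56, 117 and 121 RPKM and Id2 at 9.7, 8.89, 61.6 and 106 RPKM. The antagonists Nog and Fst were highest at day 12, Nog at 0.385, 0.459, 9.6 and 63.7 RPKM and Fst at 0.88, 1.08, 4.83 and 110.0 RPKM, and their calls and that of Id3 were lost without either ES library. Of the pathway list 11 and 10 rises passed without the first and the second ES library, and 11 falls in either case.

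Canonical Wnt targets did not move one way. Of 24 targets, 21 were tested, 8 rose (38.1%) and 7 fell (33.3%), beside 27.4% and 27.2% over all genes. Their median log2 fold change was -0.16. Axin2, the general feedback target, was at 7.49, 8.41, 8.15 and 9.05 RPKM and Sp5 at 5.59, 6.1, 3.29 and 7.21 RPKM, neither passing. Notum, a secreted Wnt-inactivating enzyme, was at 40.3, 43.2, 2.25 and 4.55 RPKM (log2 fold change -3.62, SE 0.41, edgeR adjusted p = 0.006), and Nkx6-3, one of the 12 largest falls, at 18.1, 16.4, 0.066 and 0.0178 RPKM. Lef1 was at 4.53, 4.45, 12.9 and 8.89 RPKM, a call lost without either ES library, Dkk1 at 0.147, 0.0179, 9.81 and 7.18 RPKM and Nkd1 at 0.572, 0.483, 17.7 and 15.2 RPKM. The ligand Wnt2, made by lateral mesoderm and allantois, had no reads in ES cells and was at 56.1 RPKM at day 8 and 12.5 RPKM at day 12, at least 595-fold higher in the mean. Whether the GSK3 inhibitor was still present during differentiation is not given in the labels. With an ES library left out 4 rises passed in either case, with 4 and 3 falls.

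Epithelial and mesenchymal adhesion genes were both present. Of 30 adhesion genes, 29 were tested, 4 of them under 1 deposited RPKM in both ES libraries. Among these 29, 14 rose (48.3%) and none fell, beside 27.4% and 27.2% over all genes. Zeb2, a repressor of E-cadherin, was at 0.194, 0.101, 13.3 and 5.77 RPKM (log2 fold change 6.01, SE 0.66, edgeR adjusted p = 0.00562), and the mesenchymal cadherin Cdh11 at 0.653, 0.514, 66.1 and 45.4 RPKM. Cdh1 (E-cadherin) was at 147, 144, 39.2 and 123 RPKM and Epcam at 51.6, 47.3, 20.1 and 49.9 RPKM, low at day 8 and near the ES level at day 12, without a call. Among 28 tested members with at least 5 RPKM at a day 15 were at least 2-fold higher at day 12, epithelial genes such as Cldn6 (28.2, 25.8, 140.4 and 359 RPKM) and Esrp1 (5.77, 4.43, 5.95 and 21.3 RPKM) among them, and 4 at least 2-fold lower. Over all such tested genes 8.03% were at least 2-fold higher at day 12 and 6.15% at least 2-fold lower. Esrp1 did not pass the test. With either ES library left out 6 of the 14 rises passed.

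Within families of chromatin regulators some members fell and others rose. Tet1, the oxidase of methylcytosine that is typical of ES cells, was at 60.1, 60.9, 5.97 and 3.26 RPKM (log2 fold change -3.71, SE 0.36, edgeR adjusted p = 0.0047), and Tet2 at 31.2, 31.5, 9.31 and 7.58 RPKM, while Tet3 was at 2.91, 3.03, 26.6 and 26.3 RPKM (log2 fold change 3.16, SE 0.12, edgeR adjusted p = 0.00298). The methyltransferase cofactor Dnmt3l was at 40.3, 45.9, 3.74 and 1.97 RPKM, Dnmt3b at 34.8, 34.8, 17 and 17.2 RPKM and Dnmt1 at 52.4, 52.4, 34.4 and 27.1 RPKM, all lower, and Dnmt3a, at 19.8, 18.9, 38.3 and 28 RPKM, was higher. The calls of Dnmt1, Dnmt3a and Dnmt3b were lost without either ES library. Of 21 genes of DNA methylation, 20 were tested, with 8 higher (40.0%) and 8 lower (40.0%), beside 27.4% and 27.2% over all genes. In these 20 genes 3 and 4 rises passed without the first and the second ES library, and 3 falls in either case.

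In the Polycomb complexes, Cbx7, the chromobox subunit of ES cells, was at 121, 127, 28.8 and 54.6 RPKM and fell. Cbx2 was at 24, 26.4, 30.9 and 19.9 RPKM without a call. Phc1 fell from 163 and 165 to 36.6 and 20.6 RPKM (log2 fold change -2.52, SE 0.33, edgeR adjusted p = 0.00761), and Phc2 rose from 13.9 and 13 to 50.9 and 45.5 RPKM (log2 fold change 1.84, SE 0.13, edgeR adjusted p = 0.0036). The PRC2 core was lower, with Ezh2 at 24.9, 26.6, 14.9 and 11.2 RPKM and Eed at 79.3, 82.6, 20.3 and 23.5 RPKM, while Ezh1, at 11.3, 11.4, 15.2 and 19.9 RPKM, did not pass. Of 31 Polycomb genes, 30 were tested, 11 rose (36.7%) and 11 fell (36.7%), beside 27.4% and 27.2% over all genes. The calls of Cbx7, Ezh2 and, without the second ES library, Phc2 did not hold with an ES library left out, and 3 falls passed without either one, with 3 and 2 rises.

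The enzymes of histone H4 lysine 20 methylation, the subject of the series, did not pass the test. Suv420h2 was at 54.1, 49.2, 54.9 and 55.6 RPKM (log2 fold change 0.10, SE 0.12, edgeR adjusted p = 0.515) and Suv420h1 at 7.15, 7.98, 8.79 and 8.84 RPKM (log2 fold change 0.22, SE 0.14, edgeR adjusted p = 0.242). Setd8, which adds the first methyl group, was at 53.4, 55.7, 36.9 and 57.8 RPKM and did not pass. A missed threshold does not show that levels are equal. The counts of the wider list below stand beside 27.4% rising and 27.2% falling over all genes tested. In the wider list of H4K20 and heterochromatin genes, the H3K9 methyltransferase Suv39h1 rose (16.1, 16.4, 106 and 52 RPKM) and Suv39h2 fell (16.1, 16.3, 6.27 and 4.93 RPKM), and the heterochromatin protein Cbx1 fell from 129 and 135 to 53.1 and 44.3 RPKM, 3 calls lost without either ES library. Of 24 listed genes 22 were tested, 4 rose (Phf2, L3mbtl3, Whsc1l1 and Suv39h1) and 9 fell (40.9%), and 1 of each passed without either ES library in turn.

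Imprinted genes rose, Igf2 to the highest level among them. Of 38 imprinted genes, 32 were tested, 8 of them under 1 deposited RPKM in both ES libraries. Among these 32, 21 rose (65.6%) and 2 fell (6.25%), beside 27.4% and 27.2% over all genes. The median log2 fold change was 2.96, against -0.01 over all genes tested. Igf2, the fetal growth factor, was at 5.21, 5.28, 3385 and 3987 RPKM (log2 fold change 9.46, SE 0.26, edgeR adjusted p = 0.00268). Its neighbour H19, a maternally expressed RNA, was at 0.519, 0.675, 234 and 293 RPKM (log2 fold change 8.78, SE 0.28, edgeR adjusted p = 0.00268), so both genes of the domain rose. Dlk1 was at 0.975, 1.28, 507 and 487 RPKM and its neighbour Meg3 at 3.49, 3.96, 39.9 and 32.5 RPKM. Cdkn1c, the cyclin-dependent kinase inhibitor of the KvDMR domain, was at 31.4, 33.9, 332 and 559.6 RPKM, and Plagl1, a zinc-finger factor, at 4.96, 4.26, 207 and 105 RPKM. Paternally expressed Peg3 (30.1, 33, 386 and 131 RPKM) and Mest (47.8, 46.8, 409 and 130.1 RPKM) were highest at day 8, and their calls were lost without either ES library. Airn and Igf2r overlap on opposite strands, and whether the counting used strand is not given, so their values of 5.14 and 121 RPKM at day 8 may share reads. Snrpn and Phlda2 fell, Snrpn from 6.87 and 8.0 to 3.66 and 2.26 RPKM. With either ES library left out 13 rises passed.

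Insulin-like growth factor binding proteins rose with Igf2. Igfbp5 was at 0.112, 0.151, 299 and 161 RPKM (log2 fold change 10.76, SE 0.54, edgeR adjusted p = 0.00298) and Igfbp4 at 15, 16, 552 and 319 RPKM. The RNA-binding proteins of the oncofetal set fell modestly: Lin28a was at 238, 253, 90.8 and 109.7 RPKM and Igf2bp1 at 165, 167, 87.2 and 91.9 RPKM. Hmga2, an architectural factor of proliferating mesenchyme, was at 13.8, 12.2, 101 and 41.8 RPKM, and its relative Hmga1 fell from 290.4 and 302 to 122 and 79.1 RPKM. Mycn was at 199, 196, 95.9 and 77.5 RPKM and Myc at 89.2, 91.8, 37.9 and 39.7 RPKM, both lower. The shares of the tested oncofetal and growth list that rose and fell were 47.4% and 36.8%, beside 27.4% and 27.2% over all genes. Of 21 listed genes, 19 were tested, 9 rose and 7 fell, and 5 rises and no fall passed without either ES library in turn.

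Replication genes fell and cyclin-dependent kinase inhibitors rose. Of 51 cell cycle genes, 50 were tested, 27 fell (54.0%) and 7 rose, with a median log2 fold change of -0.94. Cyclin E1 (Ccne1), which is high throughout the cycle of ES cells, was at 92.3, 93.5, 10.9 and 12.4 RPKM (log2 fold change -2.996, SE 0.14, edgeR adjusted p = 0.00298), and Mcm2 of the replicative helicase at 220.4, 233, 78.2 and 57.1 RPKM. Mybl2, a late G1 and mitotic regulator, was at 245, 245, 36.5 and 41.7 RPKM. Cdkn1a (p21) was at 34.1, 30.6, 80.5 and 168 RPKM and Cdkn1b (p27) at 26.7, 25.1, 66.7 and 101 RPKM, both higher, and Ccnd3 was at 94.3, 94.8, 171 and 172 RPKM. Mki67, the proliferation antigen, was at 37.1, 36.5, 57.9 and 24.4 RPKM and Foxm1 at 28.8, 30.3, 32.8 and 21.1 RPKM, neither passing. With either ES library left out 6 falls and 1 rise passed, and the calls of Mcm2, Cdkn1a, Cdkn1b and Ccnd3 were among those lost.

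Many hypoxia-responsive and glycolytic genes rose. Of 30 listed genes, 29 were tested, 20 rose and 3 fell (Hk2, Pfkp and Ldhb), with a median log2 fold change of 1.01. Vegfa, the endothelial growth factor, was at 22.3, 20.1, 98.2 and 374 RPKM, and Ndrg1, a hypoxia-responsive gene, at 3.9, 4.76, 57.5 and 216 RPKM, both highest at day 12. The lactate exporter Slc16a3 was at 75.2, 79.7, 442 and 486 RPKM (log2 fold change 2.58, SE 0.14, edgeR adjusted p = 0.00298) and the glucose transporter Slc2a3 at 375, 394, 662 and 853 RPKM. Ldha was at 408, 429, 449 and 466 RPKM without a call, and the hexokinase Hk2 fell from 125 and 129.7 to 56.4 and 80.9 RPKM. Respiratory chain genes went the other way: of 36 tested, 21 fell (58.3%) and 1 rose, beside 27.2% and 27.4% over all genes. Their median log2 fold change was -0.68. Atp5a1 was at 339.7, 353, 203 and 183 RPKM, and the one rise was Cox4i2, a hypoxia-responsive isoform, at 0.679, 0.276, 8.27 and 8.42 RPKM. Without the first or second ES library 5 and 4 of the glycolytic and hypoxic rises passed, and 1 and 0 of the respiratory falls.

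Cytosolic ribosomal protein genes, which have many processed pseudogenes, were lower by a small amount. Of 53 tested, 27 fell (50.9%) and 1, Rpl22, rose, beside 27.2% and 27.4% over all genes. The median log2 fold change was -0.63. Rpl4 was at 306, 294, 206 and 179.6 RPKM (edgeR adjusted p = 0.0215) and Rps6 at 96.8, 93.4, 72.2 and 54.1 RPKM without a call. In fits over all 12 libraries 13 fell without a term for day and 27 with one, and without the first or second ES library 1 and 0. Of 28 p53 targets tested, 10 rose (35.7%) and 8 fell (28.6%), not far from the 27.4% and 27.2% over all genes. Mdm2 was at 38.1, 37.8, 35.7 and 46 RPKM without a call. Interferon and antigen presentation genes included B2m at 21.5, 17.6, 44.2 and 114 RPKM, Bst2 at 41.4, 32.7, 70.8 and 257 RPKM and H2-K1 at 68.3, 61, 34 and 121 RPKM, all highest at day 12, and B2m alone of these 3 passed, a call lost without either ES library. Of 21 tested, 6 were under 1 deposited RPKM in both ES libraries. Among these 21, 6 rose (28.6%) and 3 fell (14.3%), beside 27.4% and 27.2% over all genes. The falls were Ifitm3, Ddx58 and Cd74, and 11 members rose when no minimum level was set. Xist was at 1.03, 1.1, 0.0659 and 0.0422 RPKM and its antisense Tsix at 5.06, 5.25, 0.249 and 0.212 RPKM, so Tsix fell (log2 fold change -4.48, SE 0.24, edgeR adjusted p = 0.00298), although reads of these antisense partners cannot be told apart without strand. The Y-linked Ddx3y was present in all 4 libraries at 11.6, 11.6, 7.71 and 7.81 RPKM.

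Germline genes that ES cells express fell as well. Of 28 germline genes, 12 were tested, 9 fell (75.0%) and 1 rose, beside 27.2% and 27.4% over all genes. Stra8 (4.29, 3.2, 0.634 and 0.629 RPKM) and Piwil2 (4.3, 4.01, 0.781 and 0.939 RPKM) entered through the ES libraries and could only fall. Tex19.1, a repressor of transposons, was at 36.1, 38.1, 7.98 and 12.1 RPKM, a call lost without either ES library, and Dmrt1 at 43.1, 48.3, 6.61 and 2.47 RPKM. Tdrd7, the rise, was at 0.246, 0.24, 8.39 and 8.04 RPKM. Dazl was at 0.405, 0.245, 0.339 and 0.122 RPKM and not tested. Of 25 genes of the 2-cell-like state, 22 were in the tables and 2 were tested: Eif1a, at 114, 117, 36.9 and 45.5 RPKM, and AU018091, at 28, 28.8, 4.77 and 9.91 RPKM, both lower, while the near-identical Zscan4 genes reached at most 0.324 RPKM in any library. Without an ES library 2 and 1 of the germline falls passed.

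The 12 largest rises by log2 fold change, outside genes already named, included the RNA-binding protein Rbms3 (0, 0, 9.81 and 4.95 RPKM, at least 480-fold), the Wnt modulator Dkk2 (0, 0, 8.61 and 16.9 RPKM, at least 388-fold), Mrvi1, a smooth muscle substrate of cGMP kinase (0, 0, 13.5 and 2.04 RPKM), and the uncharacterised 3830417A13Rik (0, 0, 5.12 and 47.2 RPKM). All 4 had no reads in ES cells. Among tested genes 60 had no reads in either ES library, against 2 without reads in either differentiated library. A mean under 0.1 RPKM in ES cells and at least 10 RPKM after differentiation was found for 83 genes, and the reverse for 2.

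The 12 largest falls outside those named were led by Terc, the telomerase RNA, at 8.49, 6.56, 0 and 0 RPKM, at least 26-fold lower. Terc is a short RNA without a poly(A) tail in its mature form, so its level in poly(A) libraries is hard to interpret. Inhbb, the activin beta-B subunit, went from 117 and 118 to 0.867 and 2.4 RPKM (log2 fold change -6.17, SE 0.62, edgeR adjusted p = 0.00484), Jam2, a junctional adhesion molecule of ES cells, from 47.4 and 48.6 to 1.46 and 0.355 RPKM, and Gm7325 from 126 and 121 to 3.98 and 0.187 RPKM. Chrna9, Hsd17b14, Accsl and the noncoding A930011O12Rik completed the set, with ES levels from 5.27 RPKM for Accsl to 60.9 RPKM for Hsd17b14 and at most 1.35 RPKM after differentiation. The calls of Gm7325 and 3830417A13Rik were lost without either ES library, and that of Mrvi1 without the second.

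Between day 8 and day 12, a description of 1 library each, 801 of 9976 tested genes with at least 5 RPKM at a day were at least 2-fold higher at day 12 (8.03%) and 614 at least 2-fold lower (6.15%). Of the 3372 genes that rose against ES cells 56.0% were further from ES cells at day 12 than at day 8, 318 of them by at least 2-fold, and 275 had come back by at least 2-fold. Of the 3354 that fell 65.4% were further at day 12, 163 by at least 2-fold, and 45 had come back. The 6 largest gains were Spock1, a matrix proteoglycan (1.95 to 46.2 RPKM), Srgn, the granule proteoglycan serglycin (4.01 to 107 RPKM), Tesc (0.666 to 26 RPKM), Islr2 (0.369 to 13.3 RPKM), Myl3, given above, and Mir1938. Mir1938 is a hairpin of 100 bases that gathered 35 reads at day 12 and none at day 8, too few for a firm value. The 6 largest losses were Hbb-bh1, Hba-x, Cldn5, Klf1, Hbb-y and Plvap, 4 red cell and 2 endothelial genes. The Spock1 and Srgn rises over ES cells were lost without either ES library.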

How the data were processed

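RNA-seq was analysed for 4 WT libraries, 2 of ES cells and 1 each at day 8 and day 12, the 2 days serving as replicates. The deposited tables give, for each transcript model, the raw count of reads and an RPKM value that the authors computed. Bowtie2 (version not given) and the mouse build mm9 are named per the submitters' processing notes, and the counting tool and its use of strand are not given in the sources used here. For each gene symbol the longest model was kept.

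Genes with at least 1 deposited RPKM in 2 of the 4 libraries were tested. The deposited counts entered edgeR 4.0.16 (quasi-likelihood test, TMM scaling, two-sided, Benjamini-Hochberg adjustment) in R 4.3.3, with 2 residual degrees of freedom, and the script was checked on simulated data. There 200 of 12328 genes were changed, and 18% of the 2-fold and 88% of the 4-fold changes were recovered, with 3 false calls. Far more genes passed in the real data, so these shares need not carry over. Levels printed are RPKM recomputed from these counts with TMM-scaled reads in genes as the total, so they lie above the authors' deposited RPKM. Alternatives used DESeq2 1.42.0, limma 3.58.1 on log2 of deposited RPKM, other scalings and filters, all 12 libraries, and each library left out in turn. A gene without reads was set to a floor of 3 reads per library for the bounds on its fold.

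The members and the 33 gene lists were chosen with earlier results of these data known. A few genes that the naming rule picks are not reported here. Named genes are the 12 largest rises and 12 largest falls that passed with at least 5 RPKM in a group, a model of at least 300 bases and no overlap between groups, the anchor genes of each list, up to 4 more called members per list, taken in order of adjusted p, and the 6 largest day differences each way with at least 10 RPKM at a day. A further 105 genes were named after their values were seen. Promoters come from RefSeq (GRCm38.p6), and no coordinate was carried between builds.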

Additional observations from a re-analysis of the deposited data

How the results depend on the processing

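With 2 libraries a state, calls depend on the library left out. Over the 4 such fits the changed genes numbered from 1174 to 9162, the higher genes from 836 to 4538 and the lower genes from 338 to 4624, and those changed at least 2-fold from 836 to 2355 higher and from 338 to 2333 lower. Leaving out an ES library leaves the days alone to supply the spread, and 70.6% and 71.2% of calls were then higher, against 50.1% with all 4 libraries. Every gene called without an ES library had been called with all 4, in the same direction. In the other fits 4861 to 7768 genes passed, 47.5% to 56.3% of them higher. No call made with all 4 libraries became a call of the opposite sign in them, except 1 gene when the model with the most reads stood for each gene. The genes lower by at least 2-fold fell from 2258 to 1478 with limma on log2(RPKM + 1). With a minimum of 5 RPKM in 2 libraries they fell to 1361. The median over genes of the per-gene difference in log2 fold change from the main fit was 0.126 in each of these fits. For limma with a pseudocount of 0.1 this median difference was 0.135. With that minimum, 361 genes were at least 2-fold higher and 372 at least 2-fold lower at day 12 than at day 8. Among lists, that minimum left 4 cardiac rises of 16 and 6 Hox genes of 24, fewer genes being tested, and the fits over 12 libraries gave 17 red cell rises with or without a term for day, and 20 endothelial rises without it and 18 with it, of which the cause was not tested. Log2 fold changes that turned sign when day 8 or day 12 stood alone belong to genes without a call. Over the fits that leave out a library they ran from -0.43 to 0.73 for Ccnd2, -0.33 to 1.47 for Col18a1, -1.52 to 1.52 for Eomes, -1.08 to 0.19 for Epcam, -0.32 to 0.38 for Foxm1, -0.70 to 1.07 for H2-K1, -0.15 to 0.28 for Id1, -3.30 to 1.82 for Islr2, -0.11 to 2.63 for Lamc1. They ran from -3.27 to 1.48 for Mixl1, -0.42 to 0.88 for Mki67, -1.37 to 1.20 for Pecam1, -1.36 to 0.89 for Pou3f1, -0.34 to 0.26 for Setd8, -0.60 to 0.48 for Sp5, -2.04 to 3.19 for Tesc and -2.04 to 0.80 for Trf. Of the 105 genes named outside the rule, 46 lost their call without either ES library. No paired analysis was possible because the differentiated libraries carry a day and no replicate number.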
